A study of Mus musculus with 2 samples.

Results

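The primary cilium transport genes are the genes that move cargo into, along and out of the cilium: subunits of intraflagellar transport (IFT) trains, of the BBSome, of their motors and of the small GTPases that steer them. They were chosen by name alone, from symbols for Ift and Bbs genes, Kif3a, Kif3b, Kif3c, Kif7, Kif17, Dync2h1, Dync2li1, Ttc21b, Wdr19, Wdr35, Arl13b and Arl6. This gave 34 of the 15719 genes listed with a WT value. RNA was measured in superficial zone cells of articular cartilage, the flat cells at the joint surface, from C57BL/6 mice at postnatal day 5. The Prg4KO library came from mice without Prg4, the gene for the joint lubricant lubricin, and the WT library from wild-type mice. Each genotype had 1 library of cells freed from femoral and tibial cartilage with 0.25% trypsin for 1 hour and 173 U/mL collagenase for 1.5 hours and then seeded on fibronectin. The sources used here give neither the number or sex of the mice, nor the knockout allele, nor the days in culture.

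Most vertebrate cells, chondrocytes among them, carry a single immotile cilium that grows from the mother centriole. IFT-B trains pulled by kinesin-2 carry cargo to the tip, and IFT-A trains pulled by dynein-2 carry it back. The BBSome, a coat recruited by Arl6, takes membrane proteins out of the cilium, and Hedgehog signalling in mammals runs through this organelle. In mouse cartilage, loss of Kif3a or Ift88 is known to disturb the growth plate and the articular surface.

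Regulatory factor X (RFX) proteins are known to drive ciliary genes through a palindromic site called the X-box, so the promoters were searched for it. RefSeq promoter windows on GRCm38.p6, reaching from 250 bases before to 50 after the annotated start, were matched for 30 of the 34 genes. Those of Ift80, Ift81, Ift122 and Dync2li1 were not matched. An X-box on either strand stood in 3 of the 30 members (10%), Ift57, Kif17 and Bbs1, against 1.75% of 27025 genes with a window. Their log2 ratios, Prg4KO over WT, were 0.91 for Ift57, -0.10 for Kif17 and -0.01 for Bbs1. The shorter X-box arm GTTGCC, which is part of those X-boxes and was chosen after the shares of several motifs had been seen, stood in 14 of 30 members (46.7%), against 14.14% of all genes and 14.58% of 8668 genes whose WT FPKM was 1 or more. A match is a string of letters and not evidence of binding.

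The X-box is shown for Kif17 and Bbs1. The following stretches run 5′ to 3′ on the gene's strand with the X-box in capitals, at chr4:138262166-138262202 (plus strand) for Kif17 and chr19:4906601-4906638 (minus strand) for Bbs1.
Kif17: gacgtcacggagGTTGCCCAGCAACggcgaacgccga
Bbs1: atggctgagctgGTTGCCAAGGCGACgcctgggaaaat

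The next stretches show the X-box arm, in capitals, in the members without a full X-box that had the highest ratios (Bbs5, Bbs7) and the lowest (Ift172, Ift27), so that promoters of genes with unlike ratios can be compared. They lie at chr2:69647201-69647220 (plus strand), chr3:36613493-36613522, chr5:31291097-31291126 and chr15:78174073-78174102 (the last 3 on the minus strand).
Bbs5: caaagccggcgcGTTGCCtt
Bbs7: gaatgcgccccgGTTGCCttggaaaccggc
Ift172: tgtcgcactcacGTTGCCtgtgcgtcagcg
Ift27: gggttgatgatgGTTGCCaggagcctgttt
The arm was found in members with high and with low ratios alike. Among members with an FPKM of at least 1, the median log2 ratio was 0.14 over 12 with the arm (from -0.25 to 0.91) and 0.26 over 12 with a window and no arm (from -0.09 to 0.65).

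Library totals were 21392574 expected counts for Prg4KO and 21619093 for WT. The deposited Prg4KO values had lost their place beside the gene names and were re-paired by row order and effective length. All 34 members were paired, with 0.9975 the lowest probability, for Arl6. Prg4 itself had an FPKM of 0.10 in the Prg4KO library and 592.77 in the WT library. Chondrocyte markers such as Col2a1 (15702 FPKM in Prg4KO and 14594 in WT) and superficial zone markers such as Tnc (59.57 FPKM in Prg4KO and 103.51 in WT) were present in both. With 1 library per genotype no test of genotype is possible and the spread between cultures is unknown. The intervals given are exact 95% intervals of the count ratio per library total and cover counting error only. Log2 ratios are Prg4KO over WT on the log2(FPKM + 1) scale, which understates the difference of low genes. Their median over the 11197 genes with an FPKM of at least 1 in either library was 0.14, so ratios are also given relative to all genes. Because each library is RNA of many cells together, fewer cells with a transcript and less of it per cell cannot be told apart.

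Most of the transport genes were expressed at low levels. In the WT library 26 of the 34 lay under an FPKM of 5 and 4 lay at 10 or more. Counts ran from 16 to 1151 in the Prg4KO library and from 13 to 1222.68 in the WT library. The order of the members by FPKM was nearly the same in both libraries, with a Spearman's rho of 0.97 across the 34 genes. Levels went with transcript length among the members, at a rho of -0.57 in Prg4KO and -0.48 in WT, against -0.20 and -0.17 over all paired genes.

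**Figure D1:**
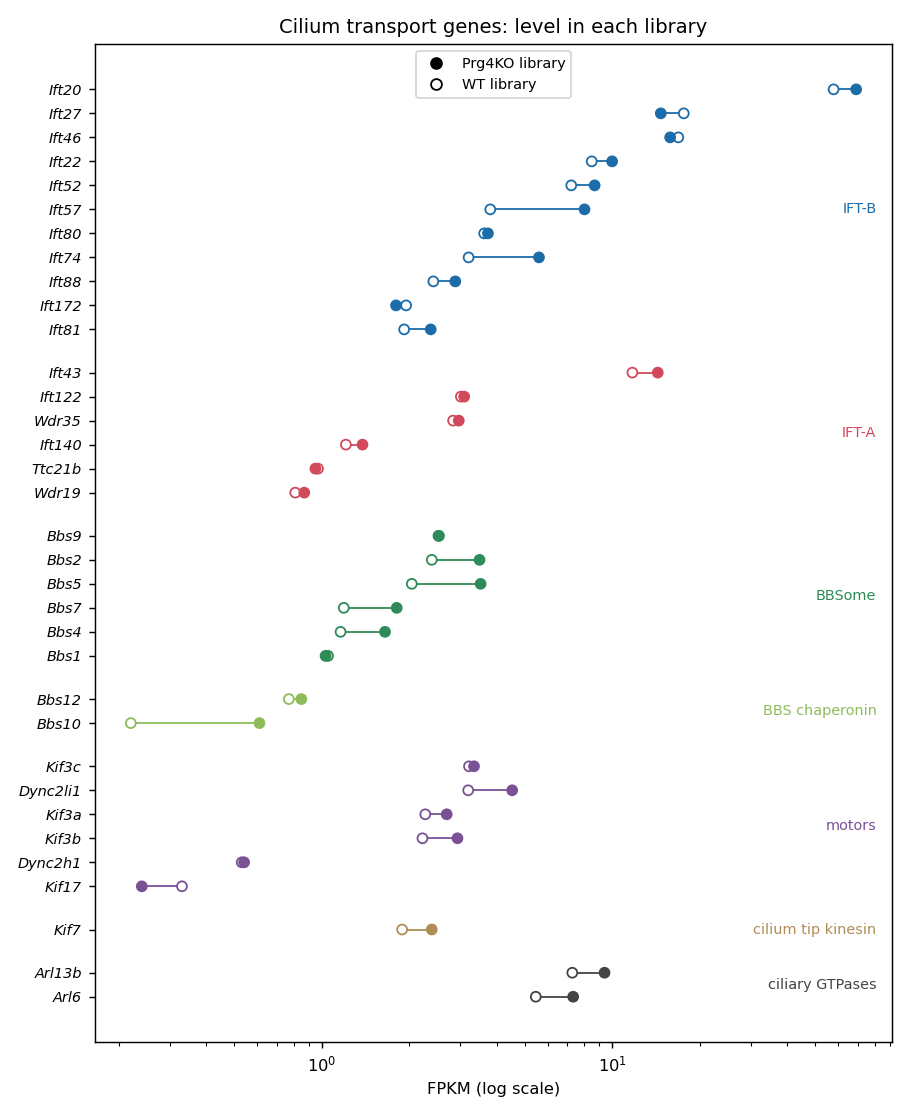
FPKM of each of the 34 genes (x axis, log scale) in the Prg4KO library (filled points) and the WT library (open points), grouped by complex. Ift20 lies highest in both libraries at 69.07 FPKM in Prg4KO and 57.75 in WT, and Kif17 and Bbs10 lie among the lowest, under 1 FPKM in both.

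No member differed 2-fold on the log2(FPKM + 1) scale. Taking the larger FPKM of each gene, 10 members reached 5, and 0 of these were past 2-fold in either direction, where 0.462% of 7367 genes were past it upward and 0.109% downward. At a lower limit of 1.3-fold, 2 of the 10 were higher in the Prg4KO library, Ift57 and Ift74, and 0 were lower, against 20.7% and 4.57% of all genes. Both passed the level of 5 only through their Prg4KO value. All 28 members with an FPKM of at least 1 had that level in WT already, and 0 of these were past 2-fold, where 0.429% of 11197 genes were past it upward and 0.0714% downward. Past 1.3-fold upward were 5 of the 28 (17.9%), Ift57, Ift74, Bbs5, Bbs2 and Dync2li1, against 19.4% of all genes, and 0 were past it downward, against 4.18%. The share past the limit upward was thus close to that of other genes.

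Over those 28 members the median log2 ratio was 0.22, or 0.08 relative to all genes, with a range from -0.25 to 0.91. The counting interval lay above 1 for 15 of the 28 (53.6%), against 46.4% of all genes, and below 1 for 1 (3.57%), against 15.9%. The width of an interval depends on the count, so these shares also depend on level. The median WT FPKM was 2.41 over the 34 members and 4.05 over all paired genes. The log2 ratio was above the all-gene median for 18 of 28 members, where 50% of genes are.

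**Figure D2:**
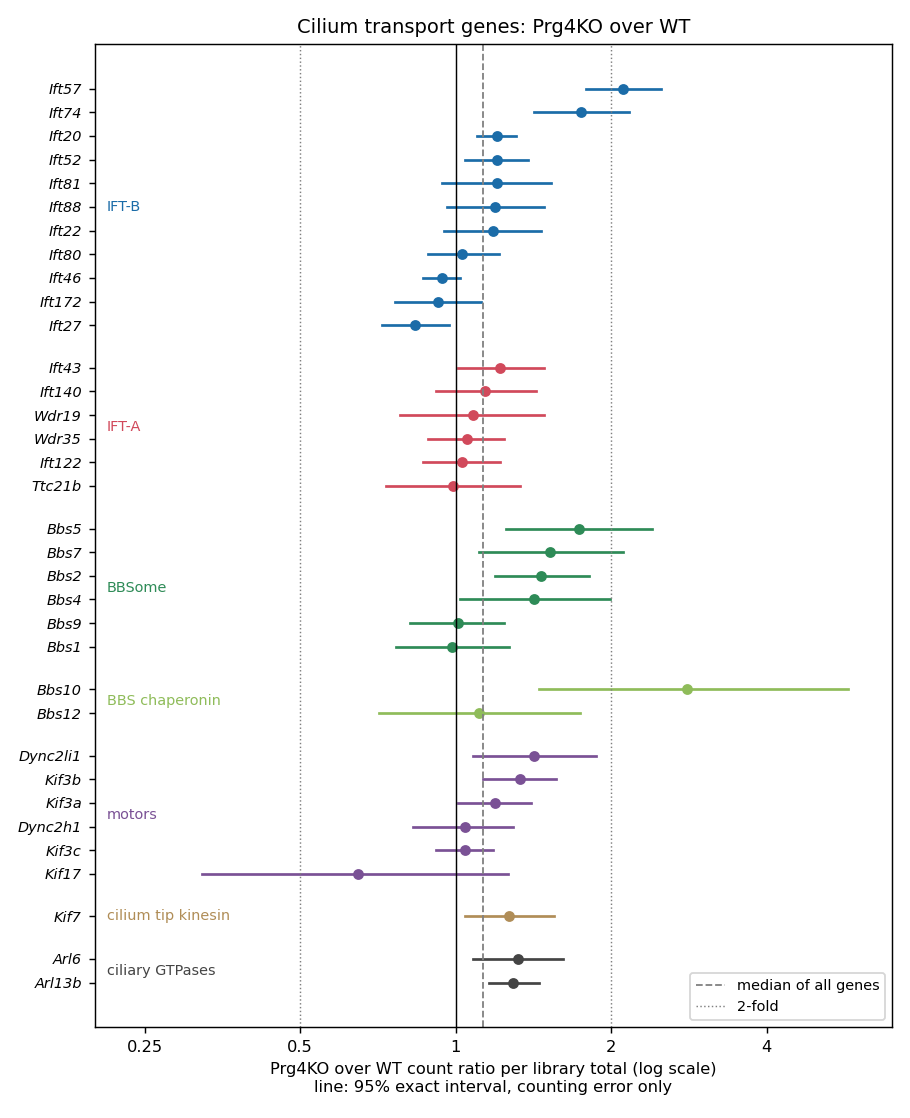
Count ratio per library total, Prg4KO over WT (x axis, log scale), of each of the 34 genes, with its 95% exact interval for counting error, grouped by complex and ordered by ratio. Ift57 (2.11) and Bbs10 (2.80) lie past 2-fold on this scale, and most other points lie around the dashed all-gene median of 1.13.

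IFT-B is the larger IFT complex and pairs a salt-stable core with a peripheral part that binds the motor. Its 11 members summed to 143 FPKM in the Prg4KO library and 125 in the WT library, and their median log2 ratio was 0.21 (0.06 relative to all genes). It was -0.06 after the trend of the ratio with transcript length and GC content was removed. The levels of subunits of this 1 complex differed widely, with the highest 38.4 times the lowest in Prg4KO and 30.1 times in WT. Ift57 and Ift74 stood apart at the upper end, and Ift27 at the lower.

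Ift57, a peripheral subunit that binds Ift20, had 437 expected counts and 8.02 FPKM in the Prg4KO library, against 209 counts and 3.80 FPKM in the WT library. The count ratio was 2.11 (1.79 to 2.50) and the log2 ratio 0.91, above 99.4% of genes with an FPKM of at least 1. By FPKM it ranked 5725 in Prg4KO and 7660 in WT. The gene (Entrez gene 73916, chr16:49699294-49765126 on GRCm38.p6) shares 225 exonic bases with the antisense gene Gm15518, and its transcript has 2540 bases. The sources used here do not say whether counting used strand, so reads within the shared bases cannot be told apart. Its log2 ratio stayed between 0.67 and 1.06 under every setting tried, 0.67 being the value after that trend was removed.

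Ift74 and Ift81 form the coiled-coil dimer of the core that binds tubulin. Ift74 had 258 counts and 5.59 FPKM in the Prg4KO library, against 148.99 counts and 3.20 FPKM in the WT library, a count ratio of 1.75 (1.42 to 2.16) and a log2 ratio of 0.65. Ift81 had 152 counts and 2.37 FPKM in Prg4KO, against 128 counts and 1.92 FPKM in WT, a ratio of 1.2 (0.942 to 1.53). The FPKM of Ift74 was 2.36 times that of its partner in the Prg4KO library and 1.67 times in the WT library. After removal of the trend, the log2 ratio of Ift74 was 0.29 and no longer past 1.3-fold, and that of Ift81 was -0.06.

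Ift20, a small subunit also found at the Golgi, was the most abundant member, with 1151 counts and 69.07 FPKM in Prg4KO and 971 counts and 57.75 FPKM in WT. Its count ratio was 1.2 (1.10 to 1.31), and its log2 ratio of 0.25 was 0.11 relative to all genes and -0.13 after removal of the trend. The Rab-like GTPase genes of the complex had count ratios on opposite sides of 1. Ift27, which acts in BBSome exit, had 324 counts and 14.68 FPKM in Prg4KO, against 392 counts and 17.61 FPKM in WT, a ratio of 0.835 (0.719 to 0.97), and was the only member of the 34 whose interval lay below 1. Ift22 had 9.98 FPKM in Prg4KO and 8.49 in WT, with an interval that held 1 (0.951 to 1.46).

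Of the other core genes, Ift46 had 1136.09 counts and 15.81 FPKM in Prg4KO, against 1222.68 counts and 16.87 FPKM in WT, a ratio of 0.939 (0.865 to 1.02). Ift52 had 8.69 FPKM in Prg4KO and 7.22 in WT (ratio 1.2, 1.04 to 1.38). Ift88, the gene of a mouse model of polycystic kidneys, had 2.88 FPKM in Prg4KO and 2.42 in WT (1.19, 0.961 to 1.48), and shares 67 exonic bases with the antisense gene Ift88os. The peripheral Ift80, mutated in human skeletal ciliopathies, had 3.73 FPKM in Prg4KO and 3.62 in WT. Ift172, the largest subunit, had 212 counts and 1.80 FPKM in Prg4KO, against 232 counts and 1.95 FPKM in WT (0.923, 0.763 to 1.12). For these 5 genes the log2 ratios lay between -0.09 and 0.24.

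The 6 IFT-A genes, which encode the return train and help receptors enter the cilium, had ratios close to each other. Among the 4 with an FPKM of at least 1 the log2 ratios ran from 0.03 to 0.27, with a median of 0.08 (-0.06 relative to all genes), a median that turned negative under every rescaling between libraries and with the trend removed. Ift43, a small peripheral subunit, was the most abundant, with 246 counts and 14.33 FPKM in Prg4KO and 203 counts and 11.72 FPKM in WT (ratio 1.22, 1.01 to 1.48). Wdr19 was the least abundant, with 83 counts and 0.87 FPKM in Prg4KO and 78 counts and 0.81 FPKM in WT (1.08, 0.780 to 1.48).

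The core subunits Ift122 (3.09 FPKM in Prg4KO and 3.01 in WT) and Ift140 (1.38 in Prg4KO and 1.21 in WT) had count ratios of 1.03 and 1.14. The peripheral Wdr35 (2.96 FPKM in Prg4KO and 2.83 in WT) and Ttc21b (0.95 in Prg4KO and 0.97 in WT) had ratios of 1.05 and 0.989. All 4 intervals held 1, so a difference could not be detected with these counts.

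The BBSome is a stable complex that carries membrane proteins out of the cilium, and 6 of its subunit genes fell under the rule. They summed to 14 FPKM in the Prg4KO library and 10.3 in the WT library, and their median log2 ratio was 0.33 (0.19 relative to all genes). The 6 fell into 4 with ratios of 1.42 or more and 2 at about 1, a description made after their values were seen. The highest FPKM among them was 3.42 times the lowest in Prg4KO and 2.40 times in WT.

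Bbs5, a phosphoinositide-binding subunit, had 106 counts and 3.52 FPKM in Prg4KO, against 62 counts and 2.04 FPKM in WT, a ratio of 1.73 (1.25 to 2.40). Bbs7, a core propeller subunit, had 101 counts in Prg4KO and 67 in WT (1.52, 1.11 to 2.11), at 1.81 FPKM in Prg4KO and 1.19 in WT. Bbs2, which pairs with Bbs7 in the core, had 223 counts in Prg4KO and 154 in WT (1.46, 1.19 to 1.81), at 3.49 FPKM in Prg4KO and 2.39 in WT. The count ratios of all of these lay above the all-gene median of 1.13, but the interval of Bbs7 held that value.

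Bbs4, which binds the centriolar satellite protein Pcm1, had 90 counts in Prg4KO and 64 in WT (1.42, 1.02 to 1.99), at 1.65 FPKM in Prg4KO and 1.16 in WT. Bbs9, the most abundant of the 6 in WT, had 185 counts and 2.53 FPKM in Prg4KO, against 186 counts and 2.52 FPKM in WT (1.01, 0.816 to 1.24). Bbs1, the subunit that binds Arl6, had 125.61 counts and 1.03 FPKM in Prg4KO, against 128.83 counts and 1.05 FPKM in WT (0.985, 0.766 to 1.27). Bbs1 and Bbs9 have the longest transcripts of the 6, at 5646 and 3390 bases, and Bbs5 the shortest, at 1419 bases. After removal of the trend the log2 ratios were 0.27 for Bbs2, 0.13 for Bbs5, 0.11 for Bbs7 and 0.08 for Bbs4, and 0.01 for Bbs1 and -0.14 for Bbs9.

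The chaperonin-like proteins Bbs10 and Bbs12 help to assemble the BBSome, and both genes lay under 1 FPKM. Bbs10 had 36 counts and 0.61 FPKM in Prg4KO, against 13 counts and 0.22 FPKM in WT, which is the highest count ratio of the 34 at 2.80, with a wide interval (1.45 to 5.75). Bbs12 had 45 counts and 0.85 FPKM in Prg4KO, against 41 counts and 0.77 FPKM in WT (1.11, 0.710 to 1.74).

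Among the motors, the genes of the heterotrimeric kinesin-2 were slightly higher in the Prg4KO library. Kif3a had 316.79 counts and 2.69 FPKM in Prg4KO, against 269.62 counts and 2.27 FPKM in WT (1.19, 1.01 to 1.4). Its partner Kif3b had 358 counts and 2.93 FPKM in Prg4KO, against 273 counts and 2.22 FPKM in WT (1.33, 1.13 to 1.56). Both chains were at nearly equal FPKM, Kif3a at 0.918 times Kif3b in Prg4KO and at 1.02 times in WT. The ratio of Kif3b was above the all-gene median of 1.13 and that of Kif3a was near it.

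Kif3c, an alternative partner of Kif3a best known from neurons, had the highest FPKM of the motor genes in WT, next to Dync2li1, with 495 counts and 3.34 FPKM in Prg4KO and 480 counts and 3.21 FPKM in WT (1.04, 0.917 to 1.18). It shares 2617 exonic bases with the antisense gene 1110002L01Rik, so its reads may include those of that gene. Kif17, a homodimeric kinesin-2 of sensory neurons, was barely detected, with 16 counts and 0.24 FPKM in Prg4KO and 25 counts and 0.33 FPKM in WT (0.647, 0.323 to 1.26). Its effective length differed more between the libraries than that of any other member, so its pairing rests mainly on row order.

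Dync2h1, the heavy chain of the return motor dynein-2, had 165 counts and 0.54 FPKM in Prg4KO, against 161 counts and 0.53 FPKM in WT (1.04, 0.828 to 1.29). Its light intermediate chain Dync2li1 had 132 counts and 4.52 FPKM in Prg4KO, against 94 counts and 3.19 FPKM in WT (1.42, 1.08 to 1.87). The heavy chain was thus at a lower FPKM than the light intermediate chain in both libraries. With the trend removed the log2 ratio of Dync2li1, whose transcript has 1378 bases, was 0.07.

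Kif7 is an immotile kinesin at the cilium tip that shapes the Gli response to Hedgehog. It had 234 counts and 2.39 FPKM in Prg4KO, against 186 counts and 1.89 FPKM in WT (1.27, 1.04 to 1.55), and it shares 877 exonic bases with the antisense gene 9330171B17Rik. Its log2 ratio of 0.23 was 0.36 with the trend removed. The Hedgehog target gene Gli1 had 16.19 FPKM in Prg4KO and 16.23 in WT (count ratio 1.0, 0.925 to 1.08). The target and receptor gene Ptch1 had 9.29 FPKM in Prg4KO and 7.56 in WT (1.23, 1.14 to 1.33). The target and inhibitor gene Hhip had 3.07 FPKM in Prg4KO and 4.02 in WT (0.766, 0.688 to 0.852). The factor gene Gli2 had 2.31 FPKM in Prg4KO and 3.19 in WT (0.726, 0.629 to 0.836). Gli1, Gli2 and Hhip were named after their values were seen.

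Both GTPase genes were higher in the Prg4KO library. Arl13b, which shapes the ciliary membrane and recruits Inpp5e, had 717 counts and 9.40 FPKM in Prg4KO, against 560 counts and 7.28 FPKM in WT (1.29, 1.16 to 1.45). Arl6, which loads the BBSome onto membranes, had 237 counts and 7.33 FPKM in Prg4KO, against 182 counts and 5.45 FPKM in WT (1.32, 1.08 to 1.61). Their log2 ratios of 0.33 and 0.37 were 0.07 and -0.05 with the trend removed, so the sign for Arl6 changes with it. Arl6 shares 55 exonic bases with 4930547E14Rik, a processed transcript on the opposite strand.

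Across all genes the ratio was lower for longer transcripts and for transcripts with a higher GC content, and the members showed the same relation. Spearman's rho of the log2 ratio was -0.47 with length and -0.56 with GC content over the 28 members, against -0.28 and -0.32 over 11197 and 11159 genes. The 13 members under 3000 bases had a median log2 ratio of 0.36, with 5 past 1.3-fold upward (38.5%), while all genes under 3000 bases had 0.21, with 26.4% past it. The 15 members of 3000 bases or more had a median of 0.05, with 0 past it, while all genes of this length had 0.08, with 11.2% past it. With the trend in both properties removed, the median over members was 0.02. Ift57 was then the 1 member of the 10 past 1.3-fold upward, and Ift27, at -0.48, the 1 past it downward. No share of all genes past these limits is given with the trend removed.

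**Figure D3:**
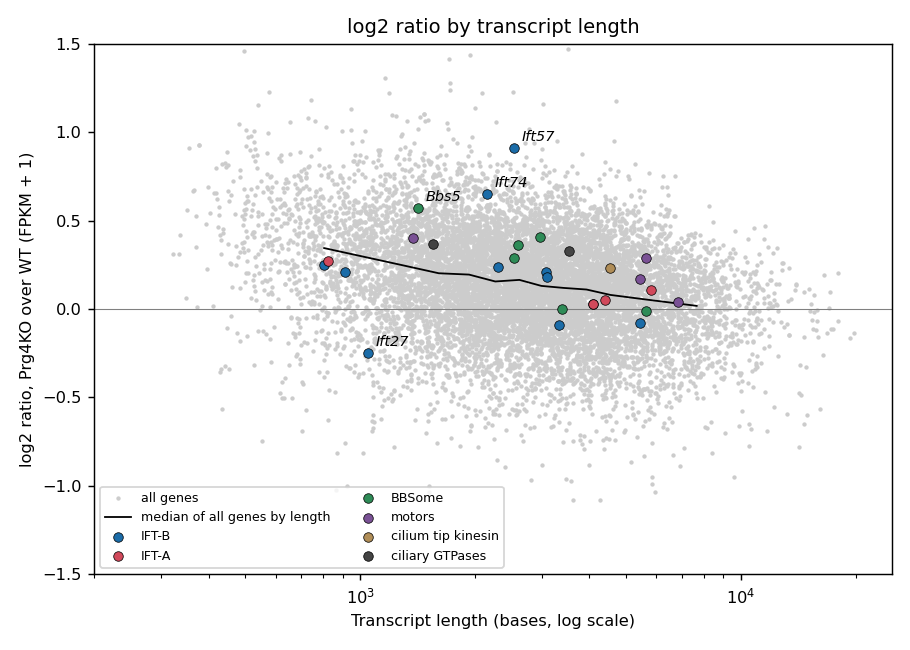
The log2 ratio, Prg4KO over WT with a pseudocount of 1 (y axis), against transcript length in bases (x axis, log scale) for all genes with an FPKM of at least 1 in either library (grey, 9 genes lie beyond the y range) and for the 28 members at that level (coloured by complex), with the all-gene median by length as a black line. Ift57, Ift74 and Bbs5 lie well above the line and Ift27 below it.

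A further list held subunits of these complexes under other symbols, with the adaptor gene Tulp3 and the regulator gene Lztfl1. Of its 11 genes measured, 8 of the 10 with an FPKM of at least 1 lay above the all-gene median, where 50% of genes do, and their median log2 ratio was 0.37 (0.23 relative to all genes, 0.15 with the trend removed). At an FPKM of at least 5, 1 of 3 was past 1.3-fold upward and 0 downward, against 20.7% and 4.57% of all genes. This was Lztfl1, a regulator of BBSome traffic, with 6.01 FPKM in Prg4KO and 3.87 in WT (log2 ratio 0.53). Lztfl1 passed the level of 5 only through its Prg4KO value. The BBSome subunits outside the rule, Bbip1 (4.90 FPKM in Prg4KO and 2.74 in WT) and Ttc8 (3.09 in Prg4KO and 2.68 in WT), had log2 ratios of 0.66 and 0.15. Mkks, the third chaperonin-like gene, had 4.26 FPKM in Prg4KO and 2.38 in WT (0.64). Cluap1, the partner of Ift57 in IFT-B, had 4.75 FPKM in Prg4KO and 3.56 in WT (0.33). Bbip1, Ttc8, Mkks and Cluap1 were chosen for their place in the complexes after their values were seen.

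The partners of kinesin-2 and dynein-2 had a median log2 ratio of 0.30 over 7 genes. At an FPKM of at least 5, 1 of 6 was past 1.3-fold upward and 1 downward. Of all genes at this level 20.7% were past it upward and 4.57% downward, the background for the transition zone and basal body lists too. Tctex1d2, a dynein-2 light chain, had 6.69 FPKM in Prg4KO and 3.89 in WT (0.65), and passed the level of 5 only through its Prg4KO value. Dynlrb1, a roadblock light chain shared with cytoplasmic dynein-1, had 155.35 FPKM in Prg4KO and 209.01 in WT (-0.43). The transition zone genes, which gate the cilium base, had a median of 0.22 over 19 genes, with 4 of 10 past 1.3-fold upward and 0 downward. Ahi1 had 7.12 FPKM in Prg4KO and 4.56 in WT (0.55), Tmem216 had 5.42 in Prg4KO and 3.57 in WT (0.49), Iqcb1 had 6.03 in Prg4KO and 4.09 in WT (0.47), and Tmem237 had 8.59 in Prg4KO and 6.29 in WT (0.40). Ahi1, Tmem216 and Iqcb1 passed the level of 5 only through their Prg4KO values. At an FPKM of at least 1, 4 of the 19 were past 1.3-fold upward and 1 downward, against 19.4% and 4.18% of all genes. The 1 downward was Tctn3, with 1.61 FPKM in Prg4KO and 2.58 in WT (-0.46). The basal body list had a median of 0.14 over 20 genes, equal to that of all genes, with 2 of 6 past 1.3-fold upward and 0 downward. The 2 were Cep83, a distal appendage gene (6.61 FPKM in Prg4KO and 4.22 in WT), and Odf2, an appendage scaffold gene (13.15 in Prg4KO and 9.77 in WT). Cep83 passed the level of 5 only through its Prg4KO value. Iqcb1, Tmem237 and Tctn3 were named after their values were seen.

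Lists of receptor, Hedgehog and RFX genes had medians under that of all genes. Ciliary membrane receptors and traffic genes had a median log2 ratio of 0.02 over 16 genes (-0.13 relative to all genes). At an FPKM of at least 5, 0 of 12 were past 1.3-fold upward and 3 downward. Of all genes at this level 20.7% were past it upward and 4.57% downward, the background for the Hedgehog and RFX lists too. Evc, a Hedgehog regulator at the cilium base, had 4.95 FPKM in Prg4KO and 7.33 in WT (-0.49), and passed the filter only through its WT value. The polycystin gene Pkd1 had 8.38 in Prg4KO and 12.02 in WT (-0.47), and the tubulin gene Tubb2b had 17.46 in Prg4KO and 24.46 in WT (-0.46). The Hedgehog list had a median of -0.09 over 11 genes (-0.23 relative to all genes), with 1 of 8 past 1.3-fold downward, the co-receptor gene Boc (33.09 FPKM in Prg4KO and 47.25 in WT). The RFX and partner list had a median of -0.19 over 8 genes (-0.33 relative to all genes), with 0 of 8 above the all-gene median, and 1 of 2 past 1.3-fold downward, Glis2, a zinc finger gene (17.09 FPKM in Prg4KO and 25.11 in WT). Of the factors that could read an X-box, Rfx1 had 8.59 FPKM in Prg4KO and 9.78 in WT (-0.17), Rfx2 had 2.14 in Prg4KO and 3.30 in WT (-0.45), and Rfx3 had 0.51 in Prg4KO and 0.52 in WT. The list also held Rfx7 (3.08 FPKM in Prg4KO and 3.37 in WT) and Rfx5 (1.49 in Prg4KO and 1.65 in WT). Their log2 ratios were -0.10 and -0.09, and both counting intervals held 1. With the trend removed the medians of the receptor, Hedgehog and RFX lists were -0.01, -0.05 and -0.19. Tubb2b, Rfx2, Rfx3, Rfx5 and Rfx7 were named after their values were seen.

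**Figure D4:**
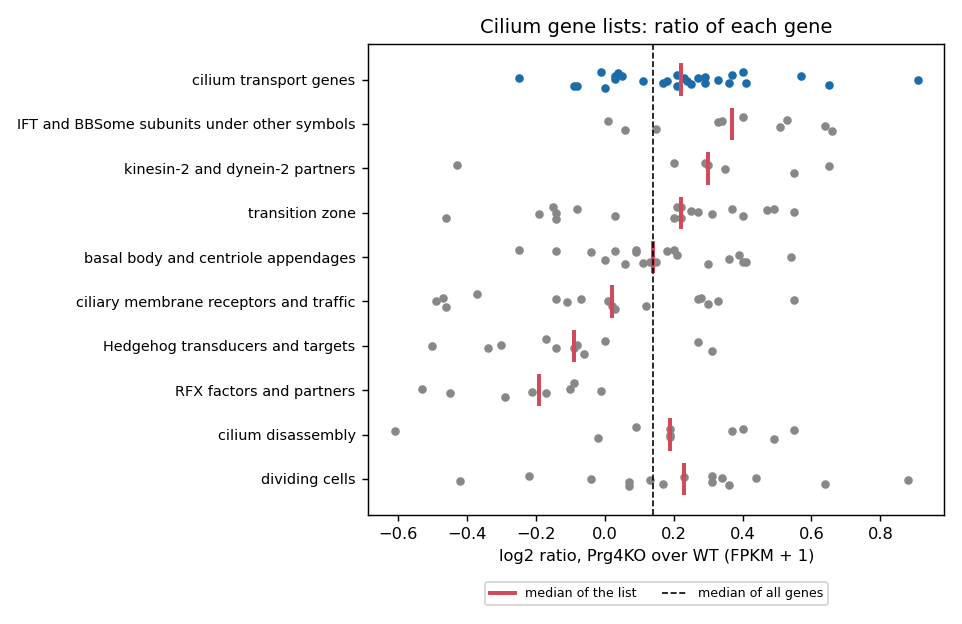
Log2 ratio, Prg4KO over WT with a pseudocount of 1 (x axis), of each gene with an FPKM of at least 1 in either library, for the transport genes (blue) and for other cilium and cell division lists (grey), with each list's median (red bar) and the all-gene median of 0.14 (dashed line). The transport genes' median of 0.22 lies just right of the dashed line, and the medians of the Hedgehog and RFX lists, -0.09 and -0.19, lie left of it.

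Cilia are taken apart as cells enter division, and markers of dividing cells were measured in both libraries. Their median log2 ratio was 0.23 over 15 genes (0.09 relative to all genes). At an FPKM of at least 5, 3 of 13 were past 1.3-fold upward and 1 downward. Of all genes at this level 20.7% were past it upward and 4.57% downward, the background for the disassembly list too. Cenpa, a centromeric histone gene, had 18.15 FPKM in Prg4KO and 9.38 in WT (0.88), Ccnb1 and Ccnb2, mitotic cyclin genes, had 9.61 in Prg4KO and 5.79 in WT (0.64) and 13.28 in Prg4KO and 9.53 in WT (0.44), and Mcm2, a replication helicase gene, had 9.28 in Prg4KO and 12.80 in WT (-0.42). Ccnb2 was named after its values were seen. The disassembly list had a median of 0.19 over 10 genes, with 1 of 6 past 1.3-fold upward, Plk1, a mitotic kinase gene (9.70 FPKM in Prg4KO and 7.11 in WT), and 1 downward, Nedd9, a scaffold for Aurora A (9.26 in Prg4KO and 14.61 in WT). The part of cell division in the members' values was not tested.

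Markers of other cells were present and some differed. Of 20 genes of motile cilia, 14 were measured in both libraries and 11 of these lay under 1 FPKM in each, with sums of 10.4 FPKM in Prg4KO and 10.2 in WT. The 3 at 1 FPKM or more were the radial spoke genes Rsph9, with 3.91 FPKM in Prg4KO and 5.18 in WT, and Rsph1, with 2.32 in Prg4KO and 1.01 in WT (count ratio 2.30, 1.42 to 3.85), and the factor gene Foxj1, with 0.82 in Prg4KO and 1.10 in WT. The axonemal dynein gene Dnah5 had 0.04 FPKM in Prg4KO and 0.02 in WT, and Dnah11, Hydin, Spag6 and Gmnc were not listed in WT. Of these genes all but Rsph9 were named after their values were seen. The 10 macrophage and osteoclast markers summed to 307 FPKM in Prg4KO and 228 in WT, the 5 red blood cell markers to 2680 in Prg4KO and 1650 in WT, and the 8 endothelial and mural markers to 185 in Prg4KO and 198 in WT. The 10 fibroblast, tendon and ligament markers summed to 13000 FPKM in Prg4KO and 22300 in WT, the 9 chondrocyte markers to 20800 in Prg4KO and 18400 in WT, the 10 hypertrophic and osteoblast markers to 896 in Prg4KO and 577 in WT, and the 11 superficial zone markers other than Prg4 to 607 in Prg4KO and 818 in WT. With Prg4, the deleted gene, these last sums were 607 FPKM in Prg4KO and 1410 in WT. Abundant genes such as Col2a1 and Col1a1 (5593 FPKM in Prg4KO and 11470 in WT) weigh most in such sums. For the fibroblast, tendon and ligament list the median log2 ratio was -0.19 (from -1.04 to 0.04). It was 0.26 for the chondrocyte list (-0.28 to 1.16). It was 0.35 for the macrophage and osteoclast list (-0.25 to 1.94), where Mmp9 and Acp5 were highest. The medians of the hypertrophic and osteoblast, red blood cell, and endothelial and mural lists were 0.38, 0.74 and -0.12. That of the superficial zone list, Prg4 included, was -0.44. Each of these medians went the same way as the sum of its list, though some lists held genes on both sides of 0. The part of a different mix of cells in the members' values was not tested.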

How the data were processed

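Per the labels, polyadenylated RNA was sequenced from 1 Prg4KO and 1 WT library. Per the file headers, the authors deposited expected counts (estimated reads per gene) and FPKM (fragments scaled by effective length and sequencing depth); no value of 0 is listed. HISAT2, Bowtie2, RSEM and mm10 appear in the submitters' processing notes; the sources used here give no versions, strand use or counting options. The table named 15719 genes and held 15973 Prg4KO value pairs; beyond row 20 their log2 FPKM correlated with the WT values beside them at only r = 0.0841. They were re-paired by a pair hidden Markov model on row order and count divided by FPKM (Python 3.11.15, numba 0.67.0), kept at a probability of 0.95 or more, which covered 14970 genes (95.2%; r = 0.981). Of the 34 members, 31 had both neighbouring pairs in the same register and 3 had 1. In 3 runs of simulated data for this comparison over 15719 genes, 4 of 45217 pairs and 0 of 102 member pairs were wrong. The simulation kept the lengths of genes with 1 transcript exact and added 500 low-count rows without a partner. It shared assumptions with the pairing model, so its error rate need not be that of the deposited file. Ratios used a pseudocount of 1; the calls used a larger FPKM of at least 5 and limits of 2 and 1.3-fold, the medians a larger FPKM of at least 1. Intervals are exact conditional binomial intervals (SciPy 1.17.1) of rounded expected counts. Normalization factors (TMM) came from edgeR 4.0.16, and the length and GC trend from loess in R 4.3.3, which held 21.3% of the variance. GC content was matched for 99.4% of genes and all 34 members. Alternatives were other scalings, a pseudocount of 0.1, FPKM filters, a pairing limit of 0.99 and the trend. All members are named; counts and intervals are given for the extremes of ratio and level, for partner pairs and for further members where a comparison needed them. From lists, the 2 highest and 2 lowest ratios at an FPKM of at least 5 could be named, and other genes are marked. The members and lists were chosen with earlier results of these data known. One promoter sequence is not reported here.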

Additional observations from a re-analysis of the deposited data

How the results depend on the processing

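With 1 library per genotype, counting error is the only error that could be given, and members under 100 counts in either library (Bbs4, Bbs5, Bbs7, Bbs10, Bbs12, Kif17, Wdr19, Ttc21b and Dync2li1) have wide intervals. No paired analysis was possible because each genotype had 1 library. Rescaling lowered Prg4KO values by 0.14 (common median) to 0.17 (TMM factors) on the log2 scale, which took the all-gene median to 0.02, 0.02 and 0.00. Members with a log2 ratio above 0 then numbered 20 of 34 under each of these scalings, against 27 as deposited and 17 after removal of the length and GC trend. No share of all genes is given beside these numbers.

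The count of members past 2-fold was 0 and became 1 (Ift57) with a pseudocount of 0.1. The count past 1.3-fold upward was 2 as deposited, 1 with TMM factors, 1 with the trend removed, 0 at a larger FPKM of at least 10, 3 with a pseudocount of 0.1 and 6 with no filter. The count past 1.3-fold downward was 0, and 1 (Ift27) at a common median, a common upper quartile, with TMM factors and with the trend removed. The number of members with an FPKM of at least 1 whose counting interval excluded 1 was 16, and 9 under each rescaling, 7 with the trend removed and 3 at a larger FPKM of at least 10. Shares of all genes are given only for the deposited scaling with the main settings. The counts under the alternatives therefore have no background beside them and are not results about the members alone. The median over members of 0.22 was 0.11 at a common median and a common upper quartile, 0.09 with TMM factors, 0.08 at a larger FPKM of at least 10 and 0.02 with the trend removed. The IFT-A median of 0.08 was -0.02 at a common median and a common upper quartile, -0.03 with TMM factors or with the trend removed, and 0.27 at a larger FPKM of at least 10, where Ift43 alone was left. The IFT-B median of 0.21 was -0.09 at that filter and -0.06 with the trend removed. The BBSome median of 0.33 was 0.22 to 0.24 under the rescalings and 0.09 with the trend removed, and the motor median of 0.23 was 0.11 to 0.13 and 0.10. Neither group had a member that reached an FPKM of 10. With a pseudocount of 0.1 the median over members was 0.26. The medians of IFT-B, IFT-A, BBSome and motor members were then 0.24, 0.12, 0.50 and 0.31. A pairing limit of 0.99 moved none of these values. Apart from the trend and the filters, whose construction shows what changed, the cause was not tested.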
